A study of Homo sapiens with 12 samples.

Results

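Molecular chaperones of the cytosol, the mitochondrion and the endoplasmic reticulum (ER) were followed as 47 named genes of the 57152 genes with values in the deposited table. They were taken by gene symbol, as heat shock proteins, their co-chaperones, the subunits of the cytosolic chaperonin and the folding and quality control genes of the ER, and not by their values here. All 47 were found, all are protein-coding in GENCODE 29, and all passed a minimum mean of 1 TPM (a transcript's share of the library, corrected for length) over the 12 libraries. They were divided by textbook location into 17 cytosolic heat shock proteins and co-chaperones, 8 chaperonin subunits, 3 mitochondrial chaperones and 19 ER genes.

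The study asked, per its title, how hydroxypropyl cyclodextrin (HPbCD), a ring-shaped sugar that takes up sterols, bears on lipid handling in alveolar cells treated with amiodarone, a cationic antiarrhythmic drug. Its 4 groups of 3 libraries were LB cells with amiodarone and HPbCD (LB amiodarone plus HPbCD), LB cells with amiodarone (LB amiodarone), LB cells with the DMSO vehicle (LB DMSO) and A549 cells with the vehicle (A549 DMSO). A549 is a human lung adenocarcinoma line, and LB cells are labelled as a line of their own with A549 cells given as their source, without further description. Where it was used, HPbCD was present at 10 mg/ml from seeding, and after 24 h amiodarone at 10 µM or DMSO at 0.1% was given for 24 h. No genotype is given. In the libraries used here HPbCD was given only together with amiodarone and A549 cells had vehicle only, so HPbCD by itself and amiodarone in A549 cells are not analysed here. The labels do not say whether the 3 libraries of a group came from separate cultures, so p-values measure the spread between these libraries.

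Chaperones bind unfolded or partly folded proteins and, mostly by cycles of ATP hydrolysis, let them fold, keep them from clumping or pass them on for breakdown. In the cytosol HSF1 raises many of their genes when unfolded protein accumulates, and in the ER the sensors IRE1 (gene ERN1), PERK (gene EIF2AK3) and ATF6 do so as the unfolded protein response. Mitochondria have chaperones of their own for imported proteins. Secretory lung cells such as alveolar type II cells send much protein through the ER.

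The promoters are shown first, because the compartments differ in the stress elements they carry. RefSeq promoters (GRCh38.p14, 250 bases before to 50 after each transcription start) were matched by symbol for 45 of 47 genes, all but CCT6A and PDIA3. On both strands 3 motifs were searched. The ER stress element, known to bind NF-Y and ATF6 or XBP1, is CCAAT, 9 bases of any kind, then CCACG. The second ER stress element is ATTGG, 1 base of any kind, then CCACG. The heat shock element, bound by HSF1, was searched as GAA, 2 bases of any kind, TTC, 2 bases of any kind, GAA, or as TTC, GAA and TTC spaced alike. The sequences below show the ER stress element in the genes for BiP, calreticulin, calnexin, PDIA6, CRELD2 and XBP1, the second element in 3 ER genes that have no match to the first, and heat shock elements in 4 genes outside the ER. Each is given 5′ to 3′ on the strand of its gene with the match in capitals, and a match that starts with CGTGG lies on the other strand.
HSPA5: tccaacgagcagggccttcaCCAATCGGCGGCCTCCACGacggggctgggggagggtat
CALR: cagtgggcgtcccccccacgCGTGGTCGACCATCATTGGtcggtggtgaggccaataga
CANX: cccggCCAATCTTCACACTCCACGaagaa
PDIA6: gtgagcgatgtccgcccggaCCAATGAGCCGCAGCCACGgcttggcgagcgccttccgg
CRELD2: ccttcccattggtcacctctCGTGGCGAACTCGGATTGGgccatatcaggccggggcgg
XBP1: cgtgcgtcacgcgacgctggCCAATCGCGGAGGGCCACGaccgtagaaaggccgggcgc
SDF2L1: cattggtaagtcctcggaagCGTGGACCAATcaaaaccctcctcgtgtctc
HYOU1: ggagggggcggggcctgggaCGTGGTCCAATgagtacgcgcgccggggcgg
HERPUD1: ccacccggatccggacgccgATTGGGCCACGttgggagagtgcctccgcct
HSPA8: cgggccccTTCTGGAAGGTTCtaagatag
HSP90AA1: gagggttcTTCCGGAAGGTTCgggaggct
HSP90AB1: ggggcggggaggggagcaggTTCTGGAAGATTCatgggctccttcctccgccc
HSPD1: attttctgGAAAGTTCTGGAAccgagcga
The HSPA5 stretch is chr9:125241371-125241429, minus strand, that of CALR chr19:12938364-12938422, plus strand, and that of CANX chr5:179698773-179698801, plus strand. PDIA6 is at chr2:10812833-10812891, minus strand, CRELD2 at chr22:49918534-49918592, plus strand, and XBP1 at chr22:28800583-28800641, minus strand. SDF2L1 is at chr22:21642094-21642144, plus strand, HYOU1 at chr11:119057254-119057304, minus strand, and HERPUD1 at chr16:56932005-56932055, plus strand. HSPA8 is at chr11:123062171-123062199, minus strand, HSP90AA1 at chr14:102087112-102087140, minus strand, HSP90AB1 at chr6:44247758-44247810, plus strand, and HSPD1 at chr2:197500060-197500088, minus strand. Each lies before the RefSeq transcription start. Those of CANX, HSPA8, HSP90AA1 and HSPD1 lie wholly within annotated exons of GENCODE 29, whose transcripts were not recorded. Those of PDIA6, XBP1 and HERPUD1 lie in exons with 12, 15 and 8 bases. The HSPD1 match also lies within HSPE1, its head-to-head neighbour.

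The ER stress element occurred in 7 of the 45 genes with a promoter, all 7 of the ER (HSPA5, HSP90B1, CALR, CANX, PDIA6, CRELD2 and XBP1). It occurred in 0.0916% of all 27305 genes with a RefSeq promoter. The second element occurred in 3, all ER genes (SDF2L1, HYOU1 and HERPUD1), against 0.0696% of all genes with a promoter. The heat shock element occurred in 7, of which 6 were cytosolic (HSPA8, HSP90AA1, HSP90AB1, DNAJA1, DNAJB6 and CHORDC1) and 1 mitochondrial (HSPD1). It occurred in 0.608% of all genes with a promoter. None of the 18 ER genes with a promoter matched the heat shock element, and none outside the ER matched either ER element. The match in DNAJA1 lies after the start and is not printed. A match is a run of letters and not a measured binding site, and a promoter without one, such as that of HSPA1A, only lacks these letters in this window.

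**Figure D1:**
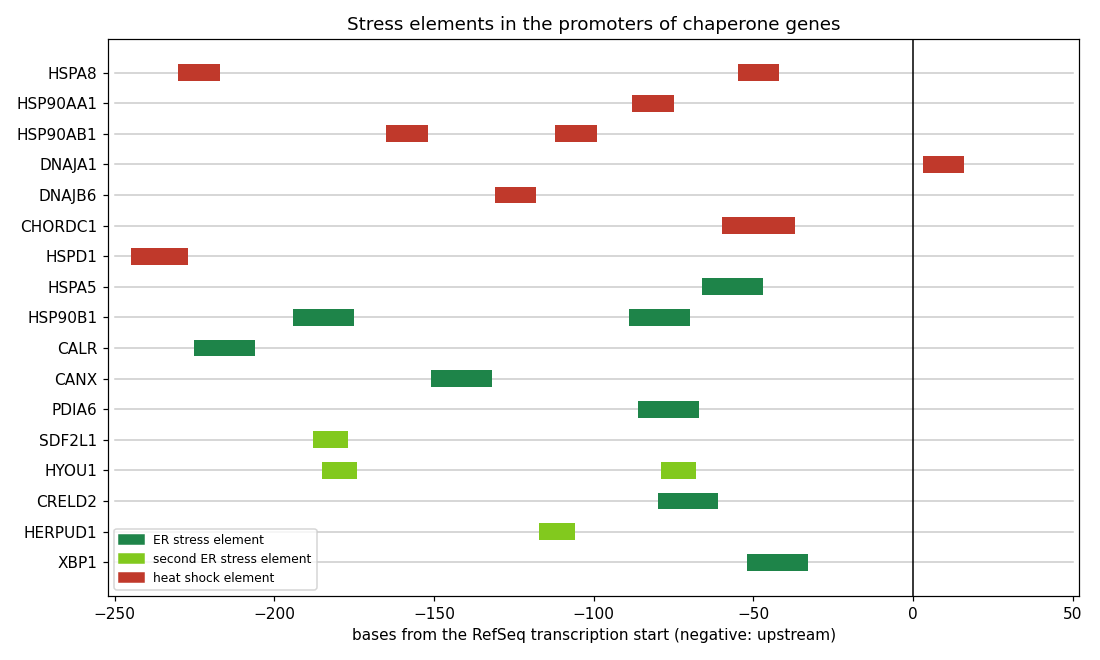
Positions of the matches to the 3 motifs in the promoters of the 17 chaperone genes that hold one, in bases from the RefSeq transcription start, upstream to the left. Red bars (heat shock element) are in cytosolic genes and HSPD1 alone, and dark and light green bars (ER stress element and second ER stress element) are in ER genes alone.

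TPM summed to 999449 to 999632 per library, with 20966 to 22261 genes above 0, and mitochondrially encoded genes took 5.38 to 9.19% of it. The summed level of 5 type II cell genes (SFTPB, SFTPD, ABCA3, NAPSA and LAMP3) was 796 to 905 TPM in LB amiodarone plus HPbCD, 708 to 726 TPM in LB amiodarone, 836 to 889 TPM in LB DMSO and 21.9 to 22.02 TPM in A549 DMSO. The difference between the lines was carried by SFTPB, SFTPD and ABCA3, while NAPSA averaged 2.96 TPM in LB DMSO and 2.50 TPM in A549 DMSO, and LAMP3 averaged 0.317 TPM in LB DMSO and 0.347 TPM in A549 DMSO. The epithelial keratins KRT8 and KRT18 were summed together with AKR1B10. Their sum was 3229.9 to 3548 TPM in LB amiodarone plus HPbCD and 3358 to 3655 TPM in LB amiodarone. It was 3515 to 3770.4 TPM in LB DMSO and 9161 to 10234 TPM in A549 DMSO. Leukocyte markers summed to at most 0.23 TPM, endothelial markers to at most 0.85 TPM and fibroblast markers to at most 9.91 TPM. Whether the differences in type II genes, keratins and AKR1B10 between the lines have a part in the chaperone results was not tested. TPM gives no read depth, so no counting error can be stated.

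Chaperone transcripts were abundant, and TPM, being per length, allows genes to be ranked. HSPA8, the constitutive cytosolic HSP70, was the highest of the 47, followed by the HSP90 genes HSP90AB1 and HSP90AA1 and by P4HB, the protein disulfide isomerase of the ER. At the other end stood DNAJC3, HSPB8, DNAJB9 and EDEM1. HSPA8 had 1756, 1489 and 1623 TPM in LB amiodarone plus HPbCD and DNAJC3 had 12.5, 10.8 and 13.4 TPM in the same libraries. The 17 cytosolic genes together had 6944 ± 483 TPM in LB amiodarone plus HPbCD, 5888 ± 378 TPM in LB amiodarone, 6214 ± 255 TPM in LB DMSO and 6277 ± 200.4 TPM in A549 DMSO (SD, n = 3 each). The 19 ER genes together had 4575 ± 135 TPM in LB amiodarone plus HPbCD, 4225 ± 119 TPM in LB amiodarone, 4018 ± 138 TPM in LB DMSO and 3796 ± 195 TPM in A549 DMSO. The summed levels of both sets in LB amiodarone plus HPbCD lay above every LB amiodarone and every LB DMSO library. The chaperonin summed to 2823 ± 104 TPM in LB amiodarone plus HPbCD, 2654 ± 133 TPM in LB amiodarone, 2996 ± 90.3 TPM in LB DMSO and 2971 ± 136 TPM in A549 DMSO, and here both amiodarone groups lay below every LB DMSO library. The 3 mitochondrial chaperones summed to 1513 ± 74.8 TPM in LB amiodarone plus HPbCD, 1374 ± 82.3 TPM in LB amiodarone, 1370.2 ± 57.3 TPM in LB DMSO and 1349 ± 64.9 TPM in A549 DMSO, and the 3 LB groups overlapped. In these bulk libraries fewer cells with a transcript and less of it per cell cannot be told apart. The spread between libraries was small, with a median residual SD of 0.0813 on the log2 scale over the 47 genes against 0.128 over all 13968 genes tested. HSPA1A and HSPA1B were the most variable of the 47, with 0.228 and 0.232. The 47 genes averaged 10.3 TPM or more over the 12 libraries, while genes from 1 TPM up were tested. These spreads, and the called shares given below, were not matched for expression level.

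**Figure D2:**
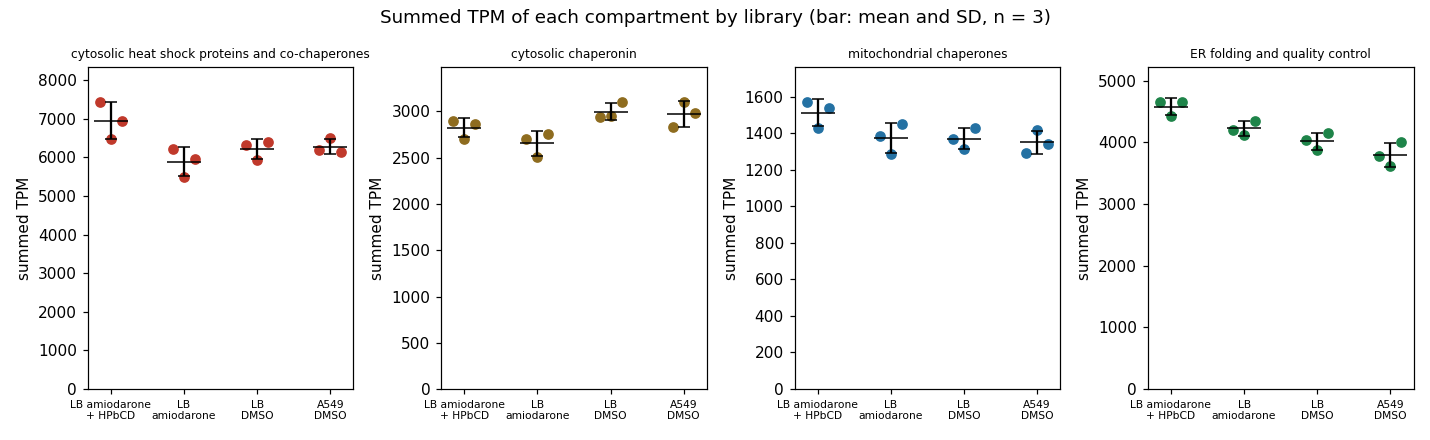
Summed TPM of the genes of each compartment in each of the 12 libraries (points), with the mean and SD of the 3 libraries of a group (bars), the y axis starting at 0. The cytosolic and ER sums are highest in LB amiodarone plus HPbCD, and the chaperonin sum is lowest in LB amiodarone.

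With HPbCD added to amiodarone, 5 of 47 genes rose and 0 fell against LB amiodarone, which is 10.6%, where 4.07% of all 13968 genes tested were called, 2.71% as higher and 1.36% as lower (limma on log2(TPM + 1), Benjamini-Hochberg adjusted p under 0.05). The risers were SDF2L1 and CALR of the ER, BAG3 and HSP90AA1 of the cytosol and HSPE1 of the mitochondrion. The difference was above 0 in 41 of 47 genes, with a median of 0.12 on the log2 scale, beside a median of -0.01 over all genes tested. By compartment the median was 0.20 in the cytosol with 2 of 17 called, 0.09 in the chaperonin with 0 of 8 called, 0.17 in mitochondria with 1 of 3 called and 0.12 in the ER with 2 of 19 called.

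Both agents together, set against vehicle in LB cells, gave the most calls of the 3 comparisons within LB cells, and most were in the ER. Here 15 of 47 genes rose and 1 fell, which is 34.0%, where 17.9% of all genes tested were called, 10.1% as higher and 7.81% as lower. In the ER 10 of 19 genes rose, namely DNAJB9, HERPUD1, DNAJC3, CANX, EDEM1, SDF2L1, CALR, PDIA6, HSPA5 and HYOU1, and the median was 0.21. In the cytosol 4 of 17 rose (HSPB8, HSPA1A, HSPA1B and HSP90AA1) with a median of 0.15, and of 3 mitochondrial genes HSPE1 rose. The one gene that fell was TCP1 of the chaperonin, whose 8 subunits had a median of -0.06. Over all genes tested the median was -0.02.

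Amiodarone alone in LB cells called few chaperones. Of the 47, 3 rose (HSPB8, EDEM1 and HERPUD1) and 3 fell (TCP1, HSP90AB1 and CCT7), which is 12.8%, where 8.62% of all genes tested were called, 4.9% as higher and 3.72% as lower. The 8 chaperonin subunits were all below 0, from -0.39 to -0.09 with a median of -0.15, while the 19 ER genes had a median of 0.10 with 13 above 0. Without XBP1, SEL1L, HERPUD1 and EDEM1, the other 15 ER genes had a median of 0.04 with 10 above 0 and 0 called. The median was -0.04 in the cytosol, -0.03 in mitochondria and 0.00 over all genes tested. This comparison shares the LB amiodarone libraries with the first and the LB DMSO libraries with the second, so the values of the 3 are not independent.

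Between the lines, LB DMSO against A549 DMSO, 12 of 47 genes rose and 5 fell, which is 36.2% and close to the 32.4% of all genes tested that were called, 14.2% as higher and 18.2% as lower. The risers were 4 cytosolic (BAG3, HSPB8, HSP90AB1 and HSPA4), 2 chaperonin (TCP1 and CCT3), 1 mitochondrial (HSPA9) and 5 ER genes (XBP1, HSPA5, DNAJB9, EDEM1 and P4HB). HSPB1, DNAJB2, HSP90AA1, HSPE1 and HERPUD1 fell. The median was -0.03 in the cytosol, the chaperonin and mitochondria alike, 0.12 in the ER and -0.04 over all genes tested. Of all genes called between the lines, 43.7% were higher, but 51.8% with median-of-ratios scaling and 52.1% with quantile normalization.

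**Figure D3:**
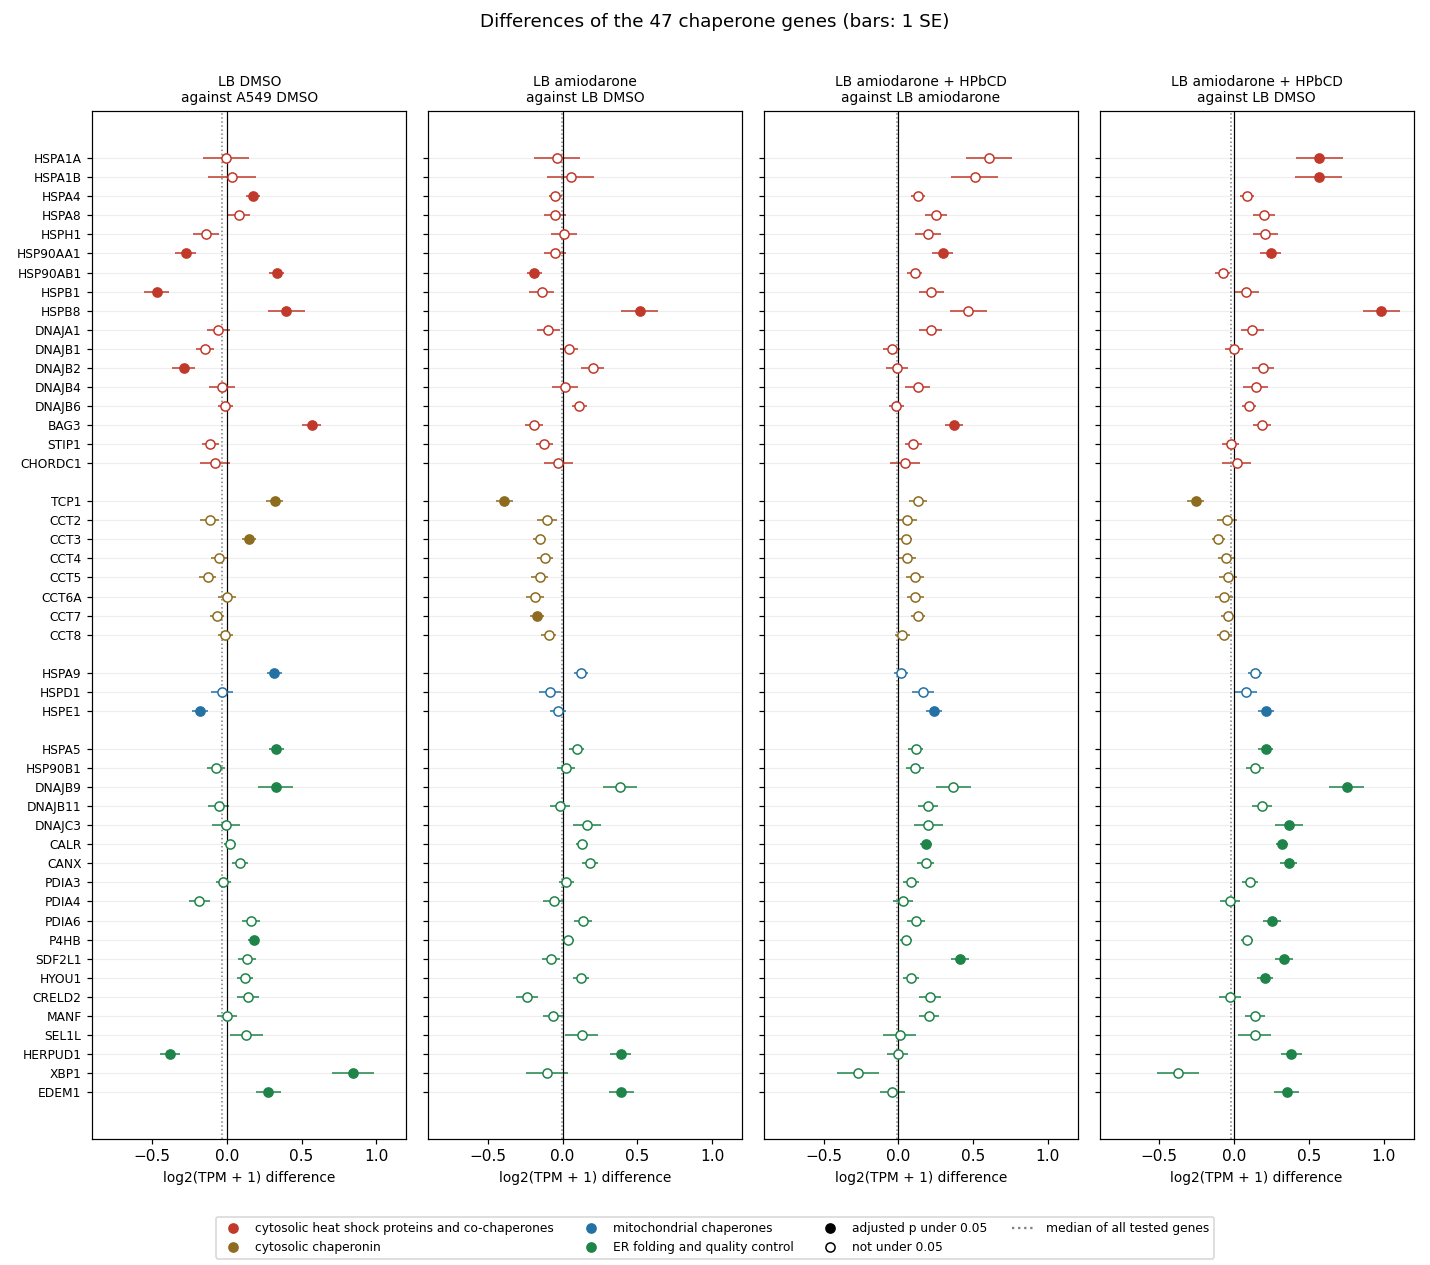
Log2(TPM + 1) difference of each of the 47 genes in the 4 comparisons, first-named group minus second, with bars of 1 SE, filled points for an adjusted p under 0.05 and a dotted line at the median of all tested genes. For LB amiodarone plus HPbCD against LB amiodarone 41 of 47 points lie right of 0, and against LB DMSO 10 of the 16 filled points are green, which marks the ER.

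The inducible HSP70 pair, HSPA1A and HSPA1B, showed the largest differences between LB amiodarone plus HPbCD and LB amiodarone among the 47, but neither passed the test. HSPA1A had 637, 452 and 537 TPM in LB amiodarone plus HPbCD, 423, 289 and 358 TPM in LB amiodarone, 406, 301 and 385 TPM in LB DMSO and 397, 329 and 365 TPM in A549 DMSO. The 3 libraries with HPbCD were above all 9 others, which overlapped one another. The log2 difference was 0.61 (SE 0.155, adjusted p = 0.0502) against LB amiodarone and 0.57 (adjusted p = 0.0236) against LB DMSO. Against LB amiodarone the adjusted p fell below the threshold when A549 DMSO replicate 2 (0.045), LB DMSO replicate 2 (0.0424), LB amiodarone replicate 1 (0.0352) or LB amiodarone plus HPbCD replicate 2 (0.0397) was left out, and the range over all 12 omissions was 0.0352 to 0.183. It also fell below it with a pseudocount of 5 (0.0496), a minimum mean of 5 TPM (0.0341), and median-of-ratios scaling (0.0427). With a replicate block, which takes out differences shared by libraries of the same number, the adjusted p was 0.000222. HSPA1A and HSPA1B had their lowest value of the group in replicate 2 in all 4 groups. The labels do not say that a replicate number marks a shared culture or day. Other calls changed by the block are given in the closing section on processing.

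HSPA1B had 348, 236 and 291 TPM in LB amiodarone plus HPbCD, 233, 169 and 209.7 TPM in LB amiodarone, 211, 163 and 213 TPM in LB DMSO and 214, 165 and 194 TPM in A549 DMSO. Again the HPbCD libraries were above the other 9, with a log2 difference of 0.51 (adjusted p = 0.103) against LB amiodarone and 0.57 (adjusted p = 0.027) against LB DMSO. The pair encodes nearly the same protein from neighbouring genes (GENCODE 29 places HSPA1A at chr6:31815464-31817946 and HSPA1B at chr6:31827735-31830255), so how reads were shared between them is uncertain and their sum is the safer value. The sum was 834 ± 149 TPM in LB amiodarone plus HPbCD, 560.1 ± 99.3 TPM in LB amiodarone, 559.7 ± 83.3 TPM in LB DMSO and 554 ± 58.8 TPM in A549 DMSO (SD, n = 3 each). It was 1.49 times as high with HPbCD as with amiodarone alone (adjusted p = 0.0629) and 1.49 times as high as in LB DMSO (adjusted p = 0.0239). Against LB amiodarone the sum passed without LB amiodarone plus HPbCD replicate 2 (adjusted p = 0.0441) and with a minimum mean of 5 TPM (0.045). With the replicate block the sum (0.000203) and HSPA1B (0.00059) passed as well. HSPA1A took 63.0 to 66.6% of the sum in every library. Against LB DMSO the calls of HSPA1A, HSPA1B and the sum were lost without LB DMSO replicate 2 or without LB amiodarone plus HPbCD replicate 1 or 3, with adjusted p from 0.0619 to 0.0999 for HSPA1A, 0.071 to 0.112 for HSPA1B and 0.0635 to 0.101 for the sum. They were also lost with no filter (0.0769, 0.0842 and 0.0782).

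HSPA8, which folds new proteins in unstressed cells, had 1756, 1489 and 1623 TPM in LB amiodarone plus HPbCD, 1439, 1250.2 and 1399.9 TPM in LB amiodarone, 1394, 1371 and 1459 TPM in LB DMSO and 1241, 1458 and 1307 TPM in A549 DMSO. The HPbCD group lay above both other LB groups, but the log2 differences of 0.25 against LB amiodarone (adjusted p = 0.0875) and 0.20 against LB DMSO (adjusted p = 0.0794) did not pass. Without A549 DMSO replicate 2 both passed (0.0476 and 0.0498), as did the one against LB DMSO without LB amiodarone plus HPbCD replicate 2 (0.0423) and both under quantile normalization (0.0349 and 0.0215). HSPA4 and HSPH1, HSP110 proteins that exchange the nucleotide of HSP70, did not pass in the comparisons within LB cells; HSPH1 averaged 102 ± 11.7 TPM in LB amiodarone plus HPbCD, 88.2 ± 7.89 TPM in LB amiodarone and 87.6 ± 5.51 TPM in LB DMSO, and passed against LB DMSO without LB amiodarone plus HPbCD replicate 2 (0.0339). HSPA4 averaged 211 ± 6.01 TPM in LB DMSO and 186 ± 3.15 TPM in A549 DMSO, a rise of 0.18 (adjusted p = 0.011).

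The HSP90 genes moved apart from each other. HSP90AA1 had 1343, 1206 and 1285 TPM in LB amiodarone plus HPbCD, 1083, 960.2 and 1079 TPM in LB amiodarone, 1071, 1028 and 1136 TPM in LB DMSO and 1238, 1453 and 1234 TPM in A549 DMSO. This stress-inducible form rose in LB amiodarone plus HPbCD, by 0.30 against LB amiodarone (adjusted p = 0.0385) and by 0.25 against LB DMSO (adjusted p = 0.0335), and in both cases the groups did not overlap. It was lower in LB DMSO than in A549 DMSO (-0.28, adjusted p = 0.0106), a call lost under quantile normalization (0.12). The call against LB amiodarone was lost without any 1 of the 6 libraries of the amiodarone groups and without LB DMSO replicate 1 or 2 (adjusted p 0.0513 to 0.155), with no filter (0.118) and in limma without trend (0.0903). The call against LB DMSO was lost without LB DMSO replicate 1 or 2 or LB amiodarone plus HPbCD replicate 1 or 3 (0.0882 to 0.124), with no filter (0.0976) and in limma without trend (0.0716).

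HSP90AB1, the constitutive form, had 1309.6, 1213 and 1250.1 TPM in LB amiodarone plus HPbCD, 1217, 1089 and 1188 TPM in LB amiodarone, 1333, 1278 and 1371 TPM in LB DMSO and 1042, 1093 and 1018 TPM in A549 DMSO. All LB amiodarone libraries were below all LB DMSO libraries, and all LB DMSO libraries were above all A549 DMSO ones. It fell by 0.19 on the log2 scale with amiodarone (adjusted p = 0.0378) and was 0.34 higher in LB DMSO than in A549 DMSO (adjusted p = 0.000255). The amiodarone call was lost without any 1 LB DMSO library, without LB amiodarone replicate 2 or 3 and without LB amiodarone plus HPbCD replicate 3 (0.0513 to 0.134), with no filter (0.102), in a fit of the 2 groups alone (0.0756) and in limma without trend (0.103). The HSP90 partners STIP1, which hands proteins over from HSP70, and CHORDC1 had no call in any comparison, with differences from -0.12 to 0.10.

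BAG3 and HSPB8 form a complex with HSP70 that sends damaged proteins to autophagy. BAG3 had 119, 114 and 115 TPM in LB amiodarone plus HPbCD, 92.97, 88.4 and 86.7 TPM in LB amiodarone, 107, 102 and 96.8 TPM in LB DMSO and 74.5, 67.5 and 63.9 TPM in A549 DMSO. No 2 of the 4 groups overlapped, and A549 DMSO was lowest. BAG3 rose by 0.37 with HPbCD against LB amiodarone (SE 0.0605, adjusted p = 0.00451) and by 0.57 in LB DMSO against A549 DMSO (adjusted p = 1.71e-05), and both calls held in each of the 21 alternatives. Its differences of -0.19 for LB amiodarone against LB DMSO (adjusted p = 0.0758) and 0.18 for LB amiodarone plus HPbCD against LB DMSO (adjusted p = 0.0541) did not pass. The first passed without A549 DMSO replicate 1 (0.0455), and the second without A549 DMSO replicate 1 (0.0297) or 3 (0.0364), with a minimum mean of 5 TPM (0.0457), with median-of-ratios scaling (0.0447) and in a fit of the 2 groups alone (0.0331).

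HSPB8, a small heat shock protein, had 22.6, 23.4 and 21.98 TPM in LB amiodarone plus HPbCD, 16.8, 16.99 and 14.7 TPM in LB amiodarone, 10.6, 13.4 and 9.25 TPM in LB DMSO and 7.47, 9.42 and 7.46 TPM in A549 DMSO. The HPbCD libraries were highest and the LB amiodarone libraries next, and LB DMSO overlapped A549 DMSO but not the amiodarone groups. The log2 difference of 0.98 between LB amiodarone plus HPbCD and LB DMSO (SE 0.124, adjusted p = 0.000183) was the largest of the 47 genes in that comparison and held in each of the 21 alternatives. The rise of 0.52 with amiodarone (adjusted p = 0.0237) was lost without LB DMSO replicate 1 or 3 or LB amiodarone replicate 1 or 2 (0.0727 to 0.0923), with no filter (0.0629) and in a fit of the 2 groups alone (0.0634). The further 0.47 with HPbCD (adjusted p = 0.057) did not pass, but did so without A549 DMSO replicate 2 (0.0336) or LB DMSO replicate 2 (0.0288) or 3 (0.0434), with a pseudocount of 5 (0.037), a minimum mean of 5 TPM (0.0444) and in a fit of the 2 groups alone (0.0221). The rise of 0.40 in LB DMSO against A549 DMSO (adjusted p = 0.0266) was lost without A549 DMSO replicate 1 or 3 or LB DMSO replicate 2 (0.0825 to 0.111), with no filter (0.0606) and in a fit of the 2 groups alone (0.0987).

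HSPB1, the abundant small heat shock protein HSP27, had 482, 492 and 481 TPM in LB amiodarone plus HPbCD, 437, 456 and 362 TPM in LB amiodarone, 492, 462 and 423 TPM in LB DMSO and 684, 589 and 633 TPM in A549 DMSO. All A549 libraries were above all LB libraries, with a fall of 0.47 on the log2 scale in LB DMSO (adjusted p = 0.000975). The J-domain proteins, which load HSP70 with its clients, came to no call within LB cells: DNAJA1, DNAJB1, DNAJB2, DNAJB4 and DNAJB6 had differences from -0.10 (DNAJA1 with amiodarone) to 0.22 (DNAJA1 with HPbCD against LB amiodarone). DNAJB2 passed against LB DMSO without LB amiodarone plus HPbCD replicate 3 (0.0369). Of these, DNAJB2 alone differed between the lines, at 18.3 ± 0.671 TPM in LB DMSO and 22.6 ± 1.16 TPM in A549 DMSO (-0.29, adjusted p = 0.0118). DNAJB1, a widely used readout of HSF1, averaged 135 ± 7.85 TPM in LB amiodarone plus HPbCD, 139 ± 10.3 TPM in LB amiodarone and 135 ± 4.502 TPM in LB DMSO.

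The chaperonin is a double ring of 8 kinds of subunit that folds actin and tubulin, and TCP1 is its first subunit. TCP1 had 328, 301 and 330.2 TPM in LB amiodarone plus HPbCD, 307, 269.6 and 299.5 TPM in LB amiodarone, 385, 363 and 399 TPM in LB DMSO and 311, 297 and 309 TPM in A549 DMSO. Every LB DMSO library was above every other library. TCP1 fell by 0.39 on the log2 scale with amiodarone (SE 0.0576, adjusted p = 0.00137) and by 0.26 with both agents (adjusted p = 0.00858), and was 0.32 higher in LB DMSO than in A549 DMSO (adjusted p = 0.000992); all 3 calls held in each of the 21 alternatives.

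The other 7 subunits shifted less. CCT7 averaged 417 ± 13.3 TPM in LB amiodarone plus HPbCD, 381 ± 19.2 TPM in LB amiodarone, 429 ± 5.29 TPM in LB DMSO and 449 ± 21.6 TPM in A549 DMSO. Its fall of 0.17 with amiodarone (adjusted p = 0.0469) was lost without A549 DMSO replicate 3, any 1 LB DMSO library, LB amiodarone replicate 2 or 3 or any 1 LB amiodarone plus HPbCD library (0.052 to 0.154), and under 5 of the 9 other settings. CCT3 and CCT6A had differences of -0.15 (adjusted p = 0.0525) and -0.18 (adjusted p = 0.0814), which passed without A549 DMSO replicate 2 (CCT3, 0.0426) and LB amiodarone replicate 3 (CCT6A, 0.0359). Under quantile normalization CCT3 (0.00156) and CCT5 (0.0142) passed with amiodarone, and both passed with both agents against LB DMSO (0.00102 and 0.0346); CCT3 also passed with amiodarone with a minimum mean of 5 TPM (0.0441). CCT2, CCT4, CCT5 and CCT8 lay between -0.15 and -0.09. All 8 subunits were above 0, from 0.03 to 0.13, when LB amiodarone plus HPbCD was set against LB amiodarone. All 8 were below 0 when LB amiodarone plus HPbCD was set against LB DMSO. The LB amiodarone plus HPbCD libraries enter both of these comparisons. Between the lines CCT3 rose by 0.15 in LB DMSO against A549 DMSO (adjusted p = 0.0214), a call lost without A549 DMSO replicate 1 or LB DMSO replicate 2 or 3 (0.0526 to 0.0832) and in limma without trend (0.0688). CCT5, at -0.13 between the lines, passed without A549 DMSO replicate 1 (0.049).

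In mitochondria HSPA9, the HSP70 of the import motor, had 507, 472 and 494 TPM in LB amiodarone plus HPbCD, 480.3, 462 and 514 TPM in LB amiodarone, 453, 422 and 460.2 TPM in LB DMSO and 352, 362 and 356 TPM in A549 DMSO. The A549 libraries were all below the LB libraries, with a rise of 0.32 in LB DMSO (adjusted p = 0.000301). The difference of 0.14 between LB amiodarone plus HPbCD and LB DMSO (adjusted p = 0.0651) did not pass, though it did so without LB amiodarone replicate 3 (0.0494) and under median-of-ratios scaling (0.0307).

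HSPD1 and HSPE1 encode HSP60 and its lid HSP10. HSPE1 had 503, 450.0 and 493 TPM in LB amiodarone plus HPbCD, 409.8, 389.6 and 423 TPM in LB amiodarone, 408, 407 and 431 TPM in LB DMSO and 445, 487 and 481 TPM in A549 DMSO. The HPbCD libraries were above those of both other LB groups. HSPE1 rose by 0.24 against LB amiodarone (adjusted p = 0.0262) and by 0.21 against LB DMSO (adjusted p = 0.0161). The first call was lost without LB amiodarone replicate 1 or 2 or LB amiodarone plus HPbCD replicate 1 or 3 (0.0701 to 0.119), with no filter (0.067), in a fit of the 2 groups alone (0.0589) and in limma without trend (0.08). The second was lost without LB DMSO replicate 1 or 2 or LB amiodarone plus HPbCD replicate 1 or 3 (0.0582 to 0.0727). Between the lines HSPE1 was lower in LB DMSO (-0.18, adjusted p = 0.0216), a call lost without A549 DMSO replicate 2 or 3 or LB DMSO replicate 1 or 2 (0.062 to 0.0741), with median-of-ratios scaling (0.0627) and in limma without trend (0.0578). HSPD1 averaged 540.0 ± 29.7 TPM in LB amiodarone plus HPbCD, 481 ± 41.2 TPM in LB amiodarone, 509.9 ± 26.5 TPM in LB DMSO and 522 ± 41.8 TPM in A549 DMSO, with no call.

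HSPA5, known as BiP, is the HSP70 of the ER and keeps the stress sensors inactive while bound to them. HSPA5 had 413, 393 and 425 TPM in LB amiodarone plus HPbCD, 380.2, 364 and 391 TPM in LB amiodarone, 359, 338 and 366 TPM in LB DMSO and 284, 268 and 293 TPM in A549 DMSO. All HPbCD libraries were above all other libraries, and all A549 libraries were below all LB libraries. It rose by 0.21 in LB amiodarone plus HPbCD against LB DMSO (adjusted p = 0.0116) and by 0.33 in LB DMSO against A549 DMSO (adjusted p = 0.000272), while the intermediate differences of 0.12 and 0.10 for LB amiodarone plus HPbCD against LB amiodarone and for LB amiodarone against LB DMSO did not pass (adjusted p = 0.246 and 0.277). The call with both agents was lost without LB DMSO replicate 2 (0.0521) or LB amiodarone plus HPbCD replicate 3 (0.0526). HSP90B1, the HSP90 of the ER, averaged 562 ± 21.98 TPM in LB amiodarone plus HPbCD, 520.4 ± 37.8 TPM in LB amiodarone, 511 ± 16.4 TPM in LB DMSO and 536 ± 33.4 TPM in A549 DMSO, with no call.

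Among the partners of BiP was the ER gene with the largest difference with both agents against LB DMSO. DNAJB9, a J-domain protein that returns BiP to IRE1, had 21.2, 20.2 and 21.8 TPM in LB amiodarone plus HPbCD, 17.3, 16.6 and 14.4 TPM in LB amiodarone, 10.2, 12.2 and 14.1 TPM in LB DMSO and 9.03, 10.8 and 8.58 TPM in A549 DMSO. The 3 LB groups did not overlap, while the LB DMSO and A549 DMSO libraries did. The difference was 0.75 between LB amiodarone plus HPbCD and LB DMSO (SE 0.115, adjusted p = 0.000789), and it held in each of the 21 alternatives. Neither step passed by itself, with 0.37 for LB amiodarone plus HPbCD against LB amiodarone (adjusted p = 0.109) and 0.38 for LB amiodarone against LB DMSO (adjusted p = 0.0609); the step with amiodarone passed without A549 DMSO replicate 2 (0.0412) or LB DMSO replicate 3 (0.0358) and with a minimum mean of 5 TPM (0.0467). The rise of 0.33 in LB DMSO against A549 DMSO (adjusted p = 0.0476) was lost in 14 of 21 alternatives, among them the omission of A549 DMSO replicate 1 or 3, LB DMSO replicate 2 or 3, LB amiodarone replicate 1 or 2 or any 1 LB amiodarone plus HPbCD library (0.0545 to 0.183).

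SDF2L1, which works with DNAJB11 in the BiP cycle, had 76.6, 78.96 and 85.2 TPM in LB amiodarone plus HPbCD, 60.9, 58.3 and 61.02 TPM in LB amiodarone, 65.4, 60.6 and 64.4 TPM in LB DMSO and 60.4, 53.8 and 59.3 TPM in A549 DMSO. The HPbCD libraries were above all 9 others. It rose by 0.41 against LB amiodarone (SE 0.0596, adjusted p = 0.00219) and by 0.33 against LB DMSO (adjusted p = 0.0022), both held in each of the 21 alternatives. DNAJB11 itself averaged 76.3 ± 6.495 TPM in LB amiodarone plus HPbCD, 66.2 ± 3.26 TPM in LB amiodarone and 66.9 ± 2.66 TPM in LB DMSO, and its difference of 0.19 against LB DMSO (adjusted p = 0.0825) did not pass, though it did so without LB amiodarone plus HPbCD replicate 2 (0.0214). DNAJC3, a J-domain co-chaperone of BiP, rose by 0.37 in LB amiodarone plus HPbCD against LB DMSO (adjusted p = 0.0177; 12.2 ± 1.296 against 9.23 ± 0.268 TPM), and HYOU1, the nucleotide exchanger of BiP, rose by 0.21 (adjusted p = 0.021; 69.9 ± 0.691 against 60.5 ± 2.19 TPM). Both calls were lost without LB DMSO replicate 1 or 2 or LB amiodarone plus HPbCD replicate 1 or 3, and that of HYOU1 also without LB amiodarone plus HPbCD replicate 2 (0.0506 to 0.0779 for DNAJC3, 0.0514 to 0.0738 for HYOU1).

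Calreticulin and calnexin hold sugar-bearing proteins in the ER until they are folded. CALR had 657, 655 and 677 TPM in LB amiodarone plus HPbCD, 583, 566 and 597 TPM in LB amiodarone, 534, 513 and 548.97 TPM in LB DMSO and 515, 513 and 544 TPM in A549 DMSO. The 3 LB groups followed each other without overlap, with HPbCD highest and vehicle lowest. CALR rose by 0.32 with both agents (SE 0.03997, adjusted p = 0.000185), held in each of the 21 alternatives, and by 0.19 with HPbCD against LB amiodarone (adjusted p = 0.0214). The call against LB amiodarone was lost without LB amiodarone replicate 1 or 2 or any 1 LB amiodarone plus HPbCD library (0.0552 to 0.0974) and in limma without trend (0.09). Its difference of 0.13 with amiodarone did not pass (adjusted p = 0.0656), though it did so with median-of-ratios scaling (0.0483).

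CANX had 602, 574 and 585 TPM in LB amiodarone plus HPbCD, 500.1, 507 and 545 TPM in LB amiodarone, 477, 419 and 473 TPM in LB DMSO and 416, 421 and 449 TPM in A549 DMSO. Its LB groups were ordered like those of CALR, and the rise of 0.37 with both agents (adjusted p = 0.000736) held in each of the 21 alternatives. The differences of 0.18 with HPbCD against LB amiodarone (adjusted p = 0.0982) and 0.18 with amiodarone (adjusted p = 0.0634) did not pass, though the second did so with median-of-ratios scaling (0.0437). PDIA3, the disulfide isomerase that works with both lectins, had no call and averaged 369.7 ± 19.2 TPM in LB amiodarone plus HPbCD, 349 ± 6.92 TPM in LB amiodarone and 343 ± 11.03 TPM in LB DMSO.

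Of the other disulfide isomerases, PDIA6 averaged 369.6 ± 21.5 TPM in LB amiodarone plus HPbCD, 340.4 ± 20.2 TPM in LB amiodarone, 309 ± 9.66 TPM in LB DMSO and 277 ± 19.3 TPM in A549 DMSO. It rose by 0.25 with both agents (adjusted p = 0.0139), a call lost without LB DMSO replicate 1 or LB amiodarone plus HPbCD replicate 1 or 3 (0.0562 to 0.0595). P4HB rose by 0.18 in LB DMSO against A549 DMSO (adjusted p = 0.00333), at 747 ± 15.1 against 659 ± 29.4 TPM, and had no call within LB cells. PDIA4 had no call, with 193 ± 9.89 TPM in LB DMSO and 220.1 ± 19.5 TPM in A549 DMSO, though its difference of -0.18 between the lines passed without A549 DMSO replicate 2 (0.0187). Between the lines PDIA6 and HYOU1 likewise passed without A549 DMSO replicate 3 (0.0203 and 0.0191). With median-of-ratios scaling and with quantile normalization PDIA6 (0.0206 and 0.0154), HYOU1 (0.0364 and 0.029) and SDF2L1 (0.0371 and 0.0409) passed between the lines. The secreted ER proteins MANF and CRELD2 had no call; CRELD2 had 30.3, 28.1 and 28.99 TPM in LB amiodarone plus HPbCD, 26.9, 22.4 and 25.99 TPM in LB amiodarone and 29.2, 29.8 and 29.98 TPM in LB DMSO, and its LB amiodarone libraries were below both other groups (difference of -0.24 with amiodarone, adjusted p = 0.0725).

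HERPUD1, which helps to assemble the complex of ER-associated degradation, had 68.4, 65.2 and 60.6 TPM in LB amiodarone plus HPbCD, 62.4, 64.5 and 68.02 TPM in LB amiodarone, 51.5, 44.8 and 52.2 TPM in LB DMSO and 67.2, 62.9 and 63.5 TPM in A549 DMSO. The LB DMSO libraries were below all 9 others. HERPUD1 rose by 0.39 with amiodarone (SE 0.0684, adjusted p = 0.00443) and by 0.38 with both agents (adjusted p = 0.00218), and fell by 0.38 in LB DMSO against A549 DMSO (adjusted p = 0.00104), all held in each of the 21 alternatives. The difference of 0.00 with HPbCD against LB amiodarone was within the spread (adjusted p = 0.982).

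EDEM1, which takes misfolded glycoproteins out of the folding cycle, had 24.2, 23.3 and 23.2 TPM in LB amiodarone plus HPbCD, 23.3, 24.6 and 24.99 TPM in LB amiodarone, 17.5, 18.1 and 19.1 TPM in LB DMSO and 16.5, 12.9 and 15.4 TPM in A549 DMSO. Both amiodarone groups were above LB DMSO and overlapped each other. EDEM1 rose by 0.39 with amiodarone (adjusted p = 0.0126), a call lost without LB DMSO replicate 1 (0.0534), and by 0.35 with both agents (adjusted p = 0.0113), held in each of the 21 alternatives. It was 0.28 higher in LB DMSO than in A549 DMSO (adjusted p = 0.022), a call lost without A549 DMSO replicate 2 or LB DMSO replicate 2 or 3 (0.0527 to 0.0781) and in a fit of the 2 groups alone (0.0894). SEL1L, the adaptor of the degradation ligase, had no call, at 37.3 ± 3.91 TPM in LB amiodarone plus HPbCD, 37.1 ± 4.87 TPM in LB amiodarone, 33.8 ± 3.45 TPM in LB DMSO and 30.8 ± 3.06 TPM in A549 DMSO.

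XBP1, the transcription factor that IRE1 activates by splicing, had 83.98, 76.8 and 94.1 TPM in LB amiodarone plus HPbCD, 101, 97.3 and 109 TPM in LB amiodarone, 102, 109 and 121 TPM in LB DMSO and 62.7, 46.9 and 76.9 TPM in A549 DMSO. The HPbCD libraries were below all those of the other LB groups, and the A549 libraries were spread widely and lowest of all but for 1 library that overlapped the HPbCD ones. The difference of -0.37 against LB DMSO did not pass (adjusted p = 0.0883), but did so without A549 DMSO replicate 2 (0.0169) or 3 (0.0331) and in a fit of the 2 groups alone (0.0266). Between LB amiodarone plus HPbCD and LB amiodarone it was -0.27 (adjusted p = 0.346). Between the lines XBP1 had the largest rise of the 47 genes, 0.84 in LB DMSO against A549 DMSO (adjusted p = 0.000607). Gene totals do not separate spliced from unspliced XBP1.

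**Figure D4:**
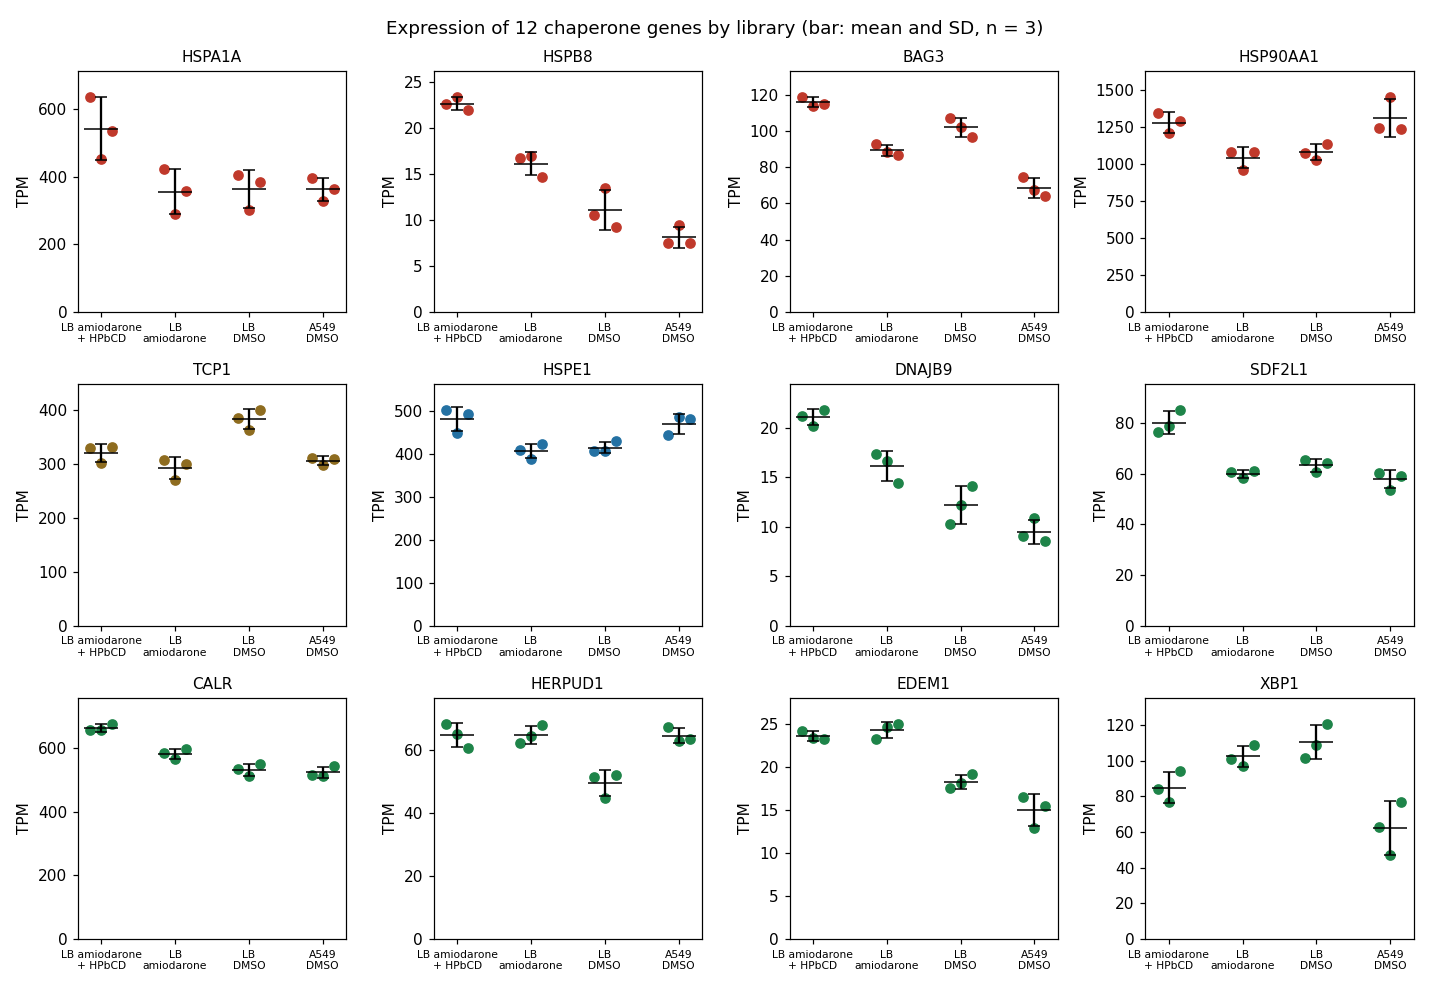
TPM of 12 chaperone genes in each of the 12 libraries (points) with the mean and SD of each group of 3 (bars), each y axis starting at 0, red for cytosolic, brown for chaperonin, blue for mitochondrial and green for ER genes. SDF2L1 and HSPA1A are high in LB amiodarone plus HPbCD alone, and HERPUD1 is low in LB DMSO alone. HSPB8, DNAJB9 and CALR step down from left to right across the LB groups, and their LB DMSO and A549 DMSO libraries overlap.

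The sensors and factors of the unfolded protein response were read beside the ER chaperones. Of 9 such genes outside the 47, 2 rose and 1 fell with HPbCD against LB amiodarone, 5 rose and 1 fell with both agents against LB DMSO, 5 rose and 0 fell with amiodarone, and 5 rose and 0 fell in LB DMSO against A549 DMSO. Over all genes tested, 4.07% were called with HPbCD against LB amiodarone, 17.9% with both agents against LB DMSO, 8.62% with amiodarone and 32.4% between the lines. DDIT3, the stress factor CHOP, averaged 67.1 ± 1.09 TPM in LB amiodarone plus HPbCD, 49.1 ± 0.352 TPM in LB amiodarone, 23.8 ± 1.18 TPM in LB DMSO and 14.8 ± 1.58 TPM in A549 DMSO (SD, n = 3 each). It rose in every comparison, by 0.44 (adjusted p = 0.00451) with HPbCD against LB amiodarone and by 1.02 (adjusted p = 2.09e-06) with amiodarone. PPP1R15A, which reverses the translation block, averaged 65.1 ± 1.73 TPM in LB amiodarone plus HPbCD, 32.8 ± 3.73 TPM in LB amiodarone and 21.8 ± 1.37 TPM in LB DMSO, and rose by 0.97 with HPbCD against LB amiodarone (adjusted p = 0.000246). ATF4, the factor above DDIT3, rose by 0.32 with amiodarone (adjusted p = 0.000591) and differed by 0.00 with HPbCD against LB amiodarone (adjusted p = 0.989). ERN1, the gene of IRE1, averaged 13.99 ± 1.11 TPM in LB amiodarone plus HPbCD, 13 ± 0.6495 TPM in LB amiodarone and 9.400 ± 0.405 TPM in LB DMSO, and rose by 0.53 with both agents against LB DMSO (adjusted p = 0.00506). ERN1 and EIF2AK3 were among the 5 that rose with amiodarone. The ERN1 call was lost without any 1 LB DMSO or LB amiodarone library (adjusted p 0.0622 to 0.0981) and with no filter (0.0657). That of EIF2AK3 was lost without LB DMSO replicate 3 (0.0584) or LB amiodarone replicate 3 (0.0532). ATF6 did not pass in any comparison, at 13.7 ± 0.635 TPM in LB amiodarone plus HPbCD, 12.1 ± 0.906 TPM in LB amiodarone, 12.1 ± 0.716 TPM in LB DMSO and 10.6 ± 0.716 TPM in A549 DMSO. Between the lines its difference of 0.18 (adjusted p = 0.11) passed with median-of-ratios scaling (0.0481) and with quantile normalization (0.0324).

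Other genes of the folding machinery were read in 5 further lists, beside called shares over all genes tested of 4.07% with HPbCD against LB amiodarone, 17.9% with both agents, 8.62% with amiodarone and 32.4% between the lines. Of 25 other ER folding genes, 0 rose and 0 fell with HPbCD against LB amiodarone, 4 rose and 1 fell with both agents against LB DMSO, 3 rose and 1 fell with amiodarone, and 8 rose and 1 fell in LB DMSO against A549 DMSO. Among them ERO1A, the oxidase that recharges the disulfide isomerases, rose by 0.55 with both agents (adjusted p = 0.000188) and by 0.37 with amiodarone (adjusted p = 0.00646). Of 17 tested genes of ER-associated degradation, 0 were called with HPbCD against LB amiodarone, 1 rose and 1 fell with both agents, 0 were called with amiodarone, and 3 rose and 1 fell between the lines. Of 30 tested cytosolic co-chaperones and heat shock factors, 2 rose and 0 fell with HPbCD against LB amiodarone, 4 rose and 2 fell with both agents, 1 rose and 3 fell with amiodarone, and 3 rose and 3 fell between the lines. HSF1 had no call, at 78.3 ± 5.98 TPM in LB amiodarone plus HPbCD, 76.6 ± 4.05 TPM in LB amiodarone, 80.1 ± 0.915 TPM in LB DMSO and 79.7 ± 4.29 TPM in A549 DMSO. HSPA6, a strictly stress-inducible HSP70, averaged 2.33 ± 0.205 TPM in LB amiodarone plus HPbCD, 0.923 ± 0.297 TPM in LB amiodarone and 0.977 ± 0.351 TPM in LB DMSO, and rose by 0.77 with both agents against LB DMSO (adjusted p = 0.0103), a low level at which the added pseudocount understates the change.

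Prefoldin hands actin and tubulin to the chaperonin. Of 9 genes of prefoldin and of other chaperonin partners, 0 were called in the 3 comparisons within LB cells and 2 rose between the lines. Of 15 mitochondrial folding and protease genes, 1 rose and 0 fell with HPbCD against LB amiodarone, 1 rose and 3 fell with both agents, 1 rose and 3 fell with amiodarone, and 0 rose and 1 fell between the lines. LONP1, the matrix protease, averaged 103 ± 2.94 TPM in LB amiodarone plus HPbCD, 90.02 ± 1.58 TPM in LB amiodarone and 74.97 ± 0.1102 TPM in LB DMSO, a rise of 0.45 with both agents (adjusted p = 1.36e-05). TRAP1, the HSP90 of mitochondria, averaged 117 ± 4.03 TPM in LB amiodarone plus HPbCD, 108 ± 4.58 TPM in LB amiodarone, 138 ± 2.01 TPM in LB DMSO and 171 ± 6.88 TPM in A549 DMSO. It fell by 0.35 on the log2 scale with amiodarone (adjusted p = 0.00074) and by 0.31 in LB DMSO against A549 DMSO (adjusted p = 0.000312).

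Set beside the promoters, the ER genes with an ER stress element were not all called. Over all genes tested, 17.9% were called with both agents against LB DMSO, 4.07% with HPbCD against LB amiodarone and 8.62% with amiodarone. Called as higher were 10.1%, 2.71% and 4.9% in the same order. With both agents against LB DMSO, 7 of the 10 ER genes with either element rose (HSPA5, CALR, CANX, PDIA6, SDF2L1, HYOU1 and HERPUD1), with a median difference of 0.23, and 3 of the 8 ER genes with a promoter and neither element rose (DNAJB9, DNAJC3 and EDEM1), with a median of 0.16. The second element, held by the risers SDF2L1, HYOU1 and HERPUD1, was added after values were seen, so this split was not set beforehand. The ER stress element itself is held by 7 ER genes, of which HSPA5, CALR, CANX and PDIA6 rose. HSP90B1, CRELD2 and XBP1 hold it too and had no call there. Of 19 tested genes outside the 47 with either element, 1 rose and 1 fell, with a median of -0.02. Of the 7 genes with a heat shock element, HSP90AA1 alone rose with both agents, and it alone rose with HPbCD against LB amiodarone, with medians of 0.10 and 0.17. Among the 20 genes outside the ER with a promoter and no match, 4 rose and 1 fell with both agents, with a median of 0.08. The 4 were HSPB8, HSPA1A, HSPA1B and HSPE1. The heat shock element of HSPD1 lies within HSPE1 but was counted for HSPD1 alone, and HSPE1 also rose with HPbCD against LB amiodarone. With amiodarone, 1 of 10 ER genes with either element rose (HERPUD1) and 1 of 8 with neither (EDEM1).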

How the data were processed

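RNA of 12 libraries was made into stranded mRNA libraries and sequenced, per the labels' protocols. The authors deposited TPM for each gene symbol in each library. The submitters' processing notes list STAR 2.7.3a, RSEM 1.3.1 and GRCh38; no annotation release is stated in the labels or file. RSEM divides reads shared by near-identical copies, which matters for HSPA1A and HSPA1B and for chaperones with pseudogenes. Of 57189 rows, 37 held no value and were left out, and 0 columns were left without a sample. TPM carries no depth, so no count model was used.

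Genes averaging 1 TPM or more, 13968 in all, were tested on log2(TPM + 1) with limma 3.58.1 in R 4.3.3 (all 4 groups in 1 fit, mean-variance trend, 8 residual degrees of freedom), with two-sided p-values adjusted by Benjamini-Hochberg within each of 4 comparisons at a threshold of 0.05. HSPA1A and HSPA1B were also summed before the log and refitted. The script was checked on simulated data. In 21 alternatives the pseudocount was 0.1 or 5, the filter was dropped or raised to 5 TPM, values were rescaled by median of ratios or quantiles, the fit held only the groups compared, a replicate block or no trend, or 1 of the 12 libraries was left out.

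The genes, lists and tests were chosen with earlier results of these data known, so no list was tested as a set. All 47 genes could be named. Of the other lists at most 3 per list and comparison could be named. These were past the test with the largest difference and groups that do not overlap. HSF1, HSF2, ATF6, ERN1, EIF2AK3, ATF4 and DDIT3 could be named besides. Fewer are printed. Those whose call was lost with 1 library left out were passed over after their values were seen, apart from ERN1 and EIF2AK3 with amiodarone. Promoters were RefSeq's for GRCh38.p14, scanned with Python 3.11.15; 20 bases were printed either side of a match, or fewer to stay within 30 bases in exons. The second ER stress element was added after values were seen.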

Additional observations from a re-analysis of the deposited data

How the results depend on the processing

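No called difference changed its direction in any of the 21 alternatives. Of the chaperone genes called, 2 of 5 (SDF2L1 and BAG3) kept their call in all 21 for LB amiodarone plus HPbCD against LB amiodarone, 8 of 16 (HSPB8, DNAJB9, CALR, CANX, SDF2L1, HERPUD1, EDEM1 and TCP1) for LB amiodarone plus HPbCD against LB DMSO, 2 of 6 (TCP1 and HERPUD1) for LB amiodarone against LB DMSO, and 11 of 17 for LB DMSO against A549 DMSO. The number called for LB amiodarone plus HPbCD against LB amiodarone was 5, against 3 with no filter, 2 in limma without trend and 2 to 8 with 1 library left out. For LB amiodarone against LB DMSO it was 6, against 3 with no filter, 3 in a fit of the 2 groups and 2 to 8 with 1 library left out. For LB amiodarone plus HPbCD against LB DMSO it was 16, and 9 to 18 with 1 library left out; the 9 came without LB DMSO replicate 2 or LB amiodarone plus HPbCD replicate 1 or 3. Over all genes the calls numbered 568 (280 to 825 with 1 library left out) with HPbCD against LB amiodarone and 1204 (628 to 1497) with amiodarone. Both upper ends came without A549 DMSO replicate 2, which is in neither comparison but enters the shared estimate of spread. Fewer libraries enter each of these fits, and why the numbers moved was not tested. Median differences of compartments moved by less than the spread between replicates in all but 1 of 336 refits, the chaperonin with both agents against LB DMSO under quantile normalization (-0.13).

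With the replicate block, 8 chaperone genes were called for LB amiodarone plus HPbCD against LB amiodarone (606 of all genes), 22 for LB amiodarone plus HPbCD against LB DMSO (2558), 8 for LB amiodarone against LB DMSO (1198) and 18 for LB DMSO against A549 DMSO (4581). Calls gained with the block were HSPA1A (adjusted p = 0.000222), HSPA1B (0.00059), their sum (0.000203), HSPB8 (0.0185) and DNAJB11 (0.0483) for LB amiodarone plus HPbCD against LB amiodarone. For LB amiodarone plus HPbCD against LB DMSO they were BAG3 (0.017), XBP1 (0.0239), DNAJB11 (0.0255), HSPH1 (0.0393), HSPA9 (0.0465) and HSP90B1 (0.0493). For LB amiodarone against LB DMSO they were BAG3 (0.0288), CALR (0.0327) and CANX (0.0422), and between the lines PDIA4 (0.00465) and PDIA6 (0.0137). Calls lost with the block were HSP90AA1 for LB amiodarone plus HPbCD against LB amiodarone (0.0599), CCT7 for LB amiodarone against LB DMSO (0.0608) and DNAJB9 between the lines (0.0648). The labels do not say that a number marks a shared culture or day. Same-numbered libraries deviated together with correlations of -0.03 to 0.21, not all above 0.1, and each library correlated best with its own number for 3 of 3 pairs in LB DMSO against A549 DMSO and 2 of 3 in the other comparisons, a hint from the data and not the design. The libraries were therefore not treated as paired. TPM gives no depth, and a 3-library group leaves differences near the spread undetected.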

Other observations

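Of the 47 chaperone genes, 9 had their lowest value of the group in replicate 2 in all 4 groups, 1 in replicate 3 and 0 in replicate 1. Of the 9, 6 were ER genes, 2 were HSPA1A and HSPA1B, and 1 was a chaperonin subunit. Over all 13968 genes tested the shares were 3.22% for replicate 2, 1.7% for replicate 3 and 1.31% for replicate 1. The labels give no batch, and what replicate 2 libraries share was not tested.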
